A study of Homo sapiens with 4 samples.

Results

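The genes described here are 9 components of the tight junction among the 58735 genes of the deposited table: the claudins CLDN1, CLDN2, CLDN3, CLDN4, CLDN7 and CLDN12, occludin (OCLN), the scaffold protein ZO-1 (TJP1) and the junctional adhesion molecule JAM-A (F11R). They were selected by gene name, and the set was chosen on the FPKM values of these same libraries after CLDN2 had been seen to rise, so the difference between the groups for these genes is a description and was not used as a test. The cells were HFL1, given in the labels as a cell line and known as a human fetal lung fibroblast line. RNA was sequenced from 2 libraries labelled WT and 2 libraries labelled KO for calumenin (CALU), which binds calcium in the endoplasmic reticulum, in a study that asked about senescence and fibrosis signalling and that speaks of both knock-out and knock-down. The labels give neither treatment nor time, and do not tell whether KO is a clone or a pool. Nothing in them says that libraries sharing a label were grown as separate cultures, and p-values here therefore reflect only how far these libraries differ from one another, possibly for technical reasons.

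Tight junctions seal the space between neighbouring cells of epithelia and endothelia. Claudins are membrane proteins with 4 spans that line up between cells and decide which ions pass: CLDN2 forms a pore for small cations and water, whereas CLDN1, CLDN3 and CLDN4 are mostly known as sealing claudins. Occludin and JAM-A are further membrane proteins of the junction, and ZO-1, a scaffold with PDZ domains, ties these proteins to actin. Fibroblasts form no tight junctions of the epithelial kind, and claudin genes are better known from epithelia.

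The libraries held 16173899 to 17715774 reads recovered from the deposited FPKM values. These values are scaled to gene length and by a factor per library that did not follow the recovered totals exactly. For a gene of 1 kb, 1 read was 0.0610 FPKM in both WT replicate 2 and KO replicate 2, with totals of 16173899 and 16622382. With scaling by total reads the median log2 change of all genes tested was -0.01, against 0.03 in the main fit. CALU stood at 87.7 and 81.8 FPKM in WT and at 6.59 and 5.95 FPKM in KO. The fibroblast markers were mixed. Of the 13 fibroblast genes 9 never reached 1 FPKM, and COL1A2 and POSTN had 0 reads in all 4 libraries. By its WT and KO means S100A4 stood above 99.9% and 99.8% of protein-coding genes, and VIM above 97.8% and 98.7%. Of 14 epithelial markers, 6 stayed below 1 FPKM, while KRT8 stood at 349 to 926 FPKM. None of the 8 endothelial markers reached 1 FPKM in any library, and of 8 leukocyte markers only CD14 did, which stood at 19.4 and 16.9 FPKM in WT and 5.84 and 6.41 FPKM in KO (2.96-fold lower, limma adjusted p = 0.00457). The summed level of the 14 epithelial markers was 1038 and 1187 FPKM in WT and 1909 and 2290 FPKM in KO, and that of the 13 fibroblast markers was 1011 and 1401 FPKM in WT and 561 and 813 FPKM in KO. That sum followed S100A4, at 933 and 1352 FPKM in WT and 449 and 723 FPKM in KO (limma adjusted p = 0.0789). The other 3 tested fibroblast markers had positive differences: COL1A1 was 12.1-fold higher in KO (adjusted p = 0.0041), tested only through KO, while VIM, at 76.5 and 46.8 against 106 and 84.6 FPKM, and THY1 did not pass (adjusted p = 0.136 and 0.208). The median log2 change of the 4 was 0.49. In the epithelial list ESRP1 was at or below 0.157 FPKM in every library. Their part in the results below was not tested, and a change in the number of cells of a type cannot be told apart from a change in RNA per cell.

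CLDN2 was the gene of the 9 with the lowest or next to lowest level in WT and the highest level in KO. It stood at 0.659 and 0.734 FPKM in WT, from 41 reads in each library, and at 28.8 and 36.7 FPKM in KO, from 1722 and 2049 reads. The groups were far apart and the libraries within each group were close. The mean went from 0.696 ± 0.0529 FPKM to 32.8 ± 5.54 FPKM (n = 2 per group, SD), a 47.0-fold higher level, with a log2 change of 4.31 (SE 0.16) on the log2(FPKM + 1) scale. Its rank among protein-coding genes moved from above 41.0% of them in WT to above 94.4% in KO. The gene (ENSG00000165376) occupies chrX:106900164-106930861 of GRCh38, plus strand. It lies inside MORC4, a gene on the opposite strand, which stood at 16.3 and 17.7 FPKM in WT and at 35.9 and 33.1 FPKM in KO (log2 change 0.98, SE 0.14, limma adjusted p = 0.0095). MORC4 lost its call without either WT replicate (adjusted p = 0.0537 and 0.0815), and it is named here after its values were seen. Whether the authors' counting used strand is not given in the sources used here, so reads of overlapping genes could be shared.

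**Figure D1:**
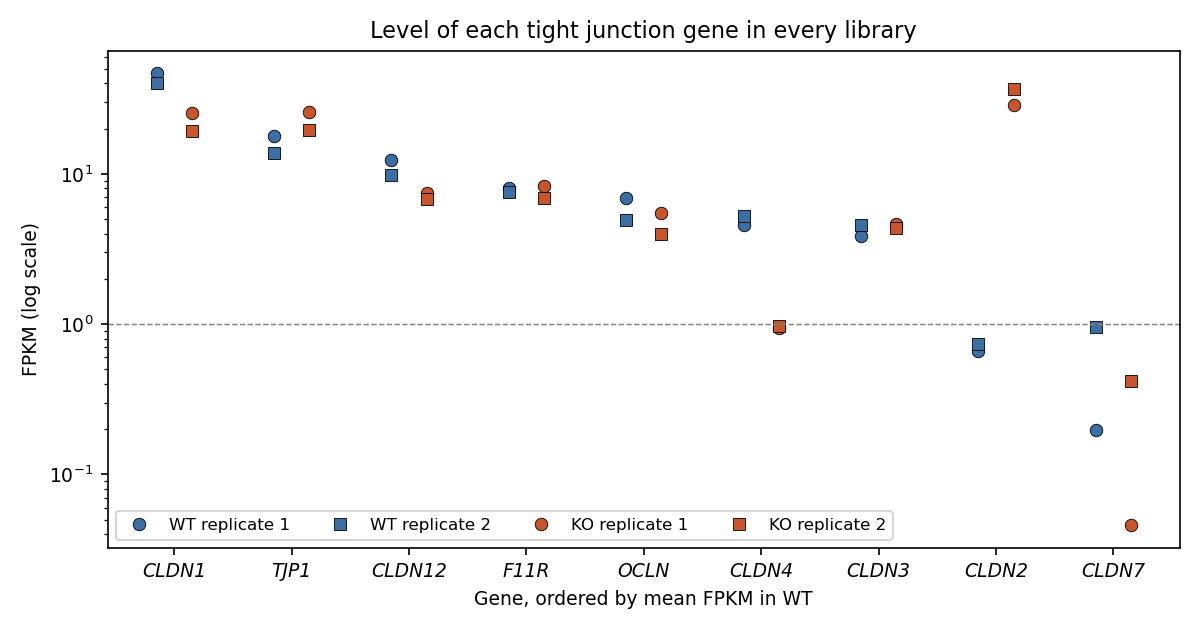
FPKM (log axis) of the 9 tight junction genes, 1 point per library, with WT in blue and KO in orange, replicate 1 as circles and replicate 2 as squares, and a dashed line at 1 FPKM. CLDN2 moves from below 1 FPKM in both WT libraries to 28.8 and 36.7 FPKM in KO, CLDN4 moves from above 4 FPKM to just below 1 FPKM, and the points of F11R, OCLN and CLDN3 overlap between groups.

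The promoters of the 3 claudins with the most separate levels, CLDN2, CLDN4 and CLDN1, are shown to compare the gene that was higher in KO with the 2 that were lower. Each window runs from 250 bases before to 50 bases after a RefSeq start on GRCh38.p14, in the direction of the gene. Capitals mark matches on either strand to CACCTG (the E-box of SNAI and ZEB repressors), TGANTCA (AP-1), GGGCGG (the GC box), TATAAA (the TATA box) and AGGTCA (the core of nuclear receptor sites). CLDN2 has 2 annotated starts, chrX:106899914-106900213 and chrX:106918110-106918409 on the plus strand, and values per gene cannot tell them apart. The CLDN4 window is chr7:73830746-73831045 on the plus strand and the CLDN1 window is chr3:190322397-190322696 on the minus strand.
CLDN2 first start: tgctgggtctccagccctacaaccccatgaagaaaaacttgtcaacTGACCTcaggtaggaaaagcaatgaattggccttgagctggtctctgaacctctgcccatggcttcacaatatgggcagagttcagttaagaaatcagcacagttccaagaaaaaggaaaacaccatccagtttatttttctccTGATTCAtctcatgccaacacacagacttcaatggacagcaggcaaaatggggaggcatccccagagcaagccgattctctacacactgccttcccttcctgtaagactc
CLDN2 second start: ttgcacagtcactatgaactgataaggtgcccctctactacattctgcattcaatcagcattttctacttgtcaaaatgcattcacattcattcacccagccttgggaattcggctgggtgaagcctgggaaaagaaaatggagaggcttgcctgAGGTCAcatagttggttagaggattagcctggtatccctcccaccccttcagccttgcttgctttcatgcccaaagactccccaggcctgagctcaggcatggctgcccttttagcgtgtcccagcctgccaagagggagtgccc
CLDN4: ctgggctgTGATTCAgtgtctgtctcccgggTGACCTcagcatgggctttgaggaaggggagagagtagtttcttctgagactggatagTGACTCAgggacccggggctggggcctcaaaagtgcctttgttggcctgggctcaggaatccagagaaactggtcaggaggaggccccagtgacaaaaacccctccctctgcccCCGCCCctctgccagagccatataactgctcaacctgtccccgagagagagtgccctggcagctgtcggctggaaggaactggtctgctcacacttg
CLDN1: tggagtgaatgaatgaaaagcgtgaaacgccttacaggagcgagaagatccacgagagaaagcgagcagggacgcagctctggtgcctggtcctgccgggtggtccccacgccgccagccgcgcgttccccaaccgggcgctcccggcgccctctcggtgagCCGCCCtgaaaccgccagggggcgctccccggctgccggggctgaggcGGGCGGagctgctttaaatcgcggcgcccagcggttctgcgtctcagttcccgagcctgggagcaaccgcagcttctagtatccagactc

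The windows differed in base composition. The CLDN2 windows were 47.3% and 51.3% G or C and held 1 and 2 CpG dinucleotides, while the CLDN1 window was 67.0% G or C with 31 CpG. The CLDN4 window was 59.0% G or C with 5 CpG. The median over all 35116 windows was 58.7% G or C and 14 CpG. The first CLDN2 window held 1 AP-1 match, beginning 60 bases before the start, and the CLDN4 window held 2, a motif found in 7.71% of all windows. Both CLDN2 windows and the CLDN4 window held 1 nuclear receptor core each, found in 13.8% of all windows. CLDN1 held 2 GC boxes and CLDN4 held 1, whereas the CLDN2 windows held no match, against 45.0% of all windows with a GC box. None of these 4 windows held an E-box (20.6% of all windows) or a TATA box (11.5%). Of the 9 genes, 8 had a window in the table, 14 windows in all, and E-boxes were present in windows of CLDN3, CLDN7, OCLN and TJP1. The second CLDN7 window, chr17:7262429-7262728, held 5 of them. These matches are letters in a window and are not measured binding.

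Among the sealing claudins, CLDN1 was the most abundant of the 9 genes in WT. It stood at 46.6 and 40.4 FPKM in WT and at 25.5 and 19.3 FPKM in KO, and the groups did not overlap. Its KO mean of 22.4 ± 4.40 FPKM, against 43.5 ± 4.36 FPKM (n = 2 per group, SD), was 1.94-fold lower, with a log2 change of -0.94 (SE 0.18). CLDN4 stood at 4.57 and 5.27 FPKM in WT and at 0.947 and 0.973 FPKM in KO, again with no overlap. Its mean was 5.12-fold lower in KO, 0.960 ± 0.0186 against 4.92 ± 0.495 FPKM (n = 2 per group, SD, log2 change -1.59, SE 0.15). CLDN3, whose gene lies 29272 bases from the annotated start of CLDN4 on chromosome 7, did not follow CLDN4. The RefSeq window of CLDN4 begins at base 73830746, farther from CLDN3. CLDN3 stood at 3.83 and 4.55 FPKM in WT and at 4.66 and 4.36 FPKM in KO, values that overlapped (log2 change 0.09, SE 0.14). The pair had similar FPKM in WT, and in KO CLDN3 had a higher FPKM than CLDN4 in both libraries. FPKM divides by the annotated gene length, 4702 bases for CLDN4 and 1274 bases for CLDN3. CLDN4 had 392 and 406 reads in WT and 78 and 75 in KO. CLDN3 had 89 and 95 reads in WT and 104 and 91 in KO. How the pair compares within a group therefore depends on those lengths.

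CLDN12, an unusual claudin without the tail that binds PDZ domains, stood at 12.4 and 9.88 FPKM in WT and at 7.46 and 6.75 FPKM in KO. Its groups did not overlap, and its mean was 1.56-fold lower in KO (log2 change -0.57, SE 0.16). CLDN7, a claudin of the basolateral membrane in many epithelia, was the least abundant of the 9 genes by its mean in both groups. It had 9 and 39 reads in WT and 2 and 17 reads in KO, which is 0.198 and 0.955 FPKM against 0.0458 and 0.416 FPKM. Replicate 2 exceeded replicate 1 in both groups, the groups overlapped, and the gene stayed below the limit for testing of 1 FPKM in at least 2 libraries.

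Of the genes that are not claudins, OCLN stood at 6.93 and 4.93 FPKM in WT and at 5.51 and 3.94 FPKM in KO, with overlapping groups (log2 change -0.27, SE 0.21). F11R stood at 8.07 and 7.54 FPKM in WT and at 8.35 and 6.92 FPKM in KO, also overlapping (log2 change -0.03, SE 0.15). TJP1 stood at 17.7 and 13.7 FPKM in WT and at 25.9 and 19.6 FPKM in KO, where the groups did not overlap (log2 change 0.50, SE 0.20). For OCLN and TJP1 the libraries of replicate 1 stood above those of replicate 2 in both groups, by ratios of 1.41 in WT and 1.40 in KO for OCLN and of 1.29 in WT and 1.32 in KO for TJP1. A partial copy of OCLN, the pseudogene OCLNP1, had 1 read in each WT library and 0 in KO.

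The fit across the 14100 genes tested (limma, Benjamini-Hochberg adjusted p under 0.05) included 8 of the 9 genes. CLDN2 passed as higher, CLDN1 and CLDN4 passed as lower, and CLDN3, CLDN12, OCLN, TJP1 and F11R did not pass. The 9 genes were chosen on these same values, so which of them passed is a description and not a test. Over all genes tested 23.3% passed, 12.1% as higher and 11.1% as lower. The libraries of the groups did not overlap for 5 of the 8, namely CLDN1, CLDN2, CLDN4, CLDN12 and TJP1, against 65.7% of all genes tested. The median log2 change was -0.15 over the 8 and 0.03 over all genes tested. CLDN2 passed the limit for testing only through KO and CLDN4 only through WT. Without either WT replicate CLDN1 did not pass, leaving 1 of the 8 lower. With an exact permutation test, 2 libraries against 2 cannot give a two-sided p below 0.333.

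The order of FPKM levels changed between the groups. FPKM is scaled to the annotated gene length, which can differ from that of the RNA present, so the order between genes is approximate. CLDN4, for example, is annotated from base 73799542 of chromosome 7, well before the RefSeq start shown above. In WT the order ran from CLDN1 through TJP1, CLDN12, F11R, OCLN, CLDN4, CLDN3 and CLDN2 to CLDN7. Only 2 pairs of neighbours in that order overlapped, OCLN with CLDN4 and CLDN2 with CLDN7, although CLDN4 exceeded CLDN3 by little, 4.57 FPKM at its lowest against 4.55 FPKM. In KO the order ran from CLDN2 through TJP1, CLDN1, F11R, CLDN12, OCLN, CLDN3 and CLDN4 to CLDN7. There TJP1 overlapped CLDN1, F11R overlapped CLDN12, and OCLN overlapped CLDN3. TJP1 and F11R held ranks 2 and 4 in every library, while CLDN2 moved from ranks 8 and 9 in WT to rank 1 in both KO libraries.

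The summed level of all 24 claudin genes stayed within the range of the libraries while its makeup changed. The sum was 85.5 and 78.8 FPKM in WT and 80.2 and 82.9 FPKM in KO, with means of 82.1 ± 4.79 and 81.5 ± 1.92 FPKM (n = 2 per group, SD). Both KO values fell between the WT values. CLDN1 made up 54.5% and 51.3% of claudin FPKM in WT and 31.9% and 23.3% in KO. CLDN2 made up 0.770% and 0.931% in WT and 36.0% and 44.2% in KO. CLDN2 thus held the largest share in both KO libraries, with 1.13 and 1.90 times the FPKM of CLDN1, against 0.0141 and 0.0181 times in WT. Without CLDN2 the sum was 84.9 and 78.03 FPKM in WT and 51.3 and 46.2 FPKM in KO. The share of CLDN4 was 5.34% and 6.69% in WT and 1.18% and 1.17% in KO, and that of CLDN3 lay between 4.47% and 5.81% in all 4 libraries. CLDN2 over CLDN4 was 0.144 and 0.139 in WT and 30.4 and 37.7 in KO. These sums and shares were not tested, and they depend on the annotated gene lengths by which FPKM is scaled. Gene-level FPKM gives RNA and not protein.

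**Figure D2:**
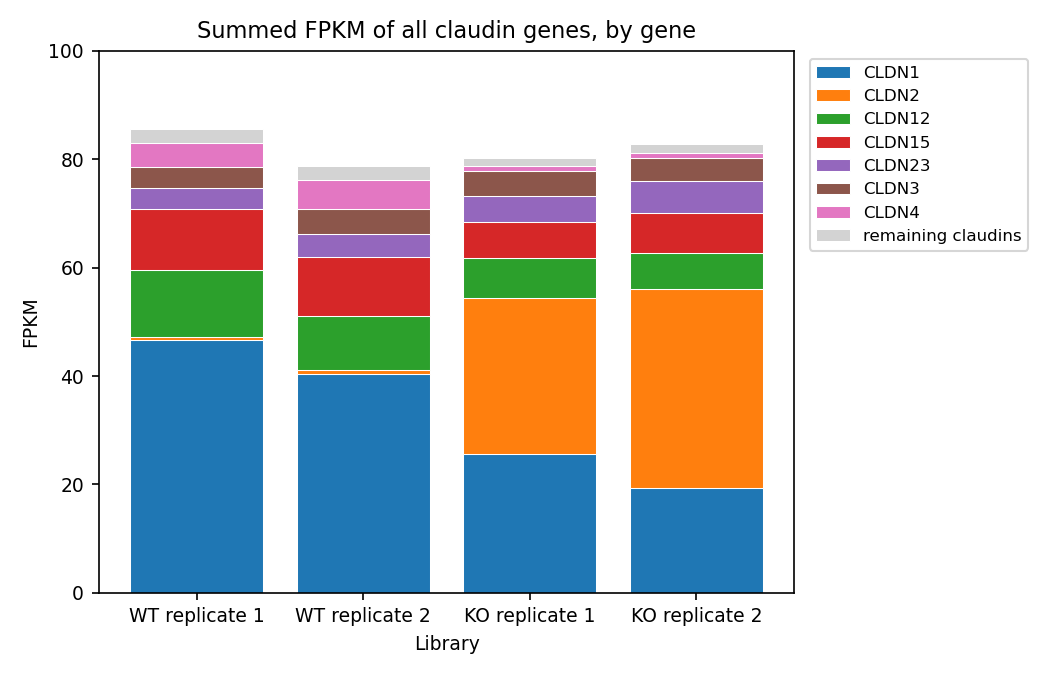
Summed FPKM of the 24 claudin genes in each library, stacked by gene, with claudins below 1 FPKM in every library pooled in grey. Bar heights are 85.5, 78.8, 80.2 and 82.9 FPKM, and the orange block of CLDN2 takes 36.0% and 44.2% of the KO bars against less than 1% of the WT bars.

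Of the 18 other claudins, 16 stayed below 1 FPKM in every library, 5 of them with 0 reads. By their WT means CLDN16 and CLDN20 were the most abundant of these, reaching at most 0.474 and 0.952 FPKM. CLDN5, the claudin of endothelium, was at or below 0.117 FPKM. CLDN15, which like CLDN2 forms a cation pore, fell in KO: it stood at 11.2 and 10.8 FPKM in WT and at 6.51 and 7.36 FPKM in KO (1.59-fold lower, log2 change -0.60, SE 0.13, limma adjusted p = 0.03). Its direction was opposite to that of CLDN2. CLDN15 lost its call without WT replicate 1, WT replicate 2 or KO replicate 1 (adjusted p = 0.0724 to 0.211). CLDN23 stood at 3.84 and 4.39 FPKM in WT and at 4.76 and 5.77 FPKM in KO (limma adjusted p = 0.215).

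Of 79 further tight junction genes listed by role, 50 were tested, of which 4 rose and 8 fell. The share that passed, 24.0%, was near the 23.3% of all genes tested, and their median log2 change was -0.01. With no filter on low values LSR, LLGL2 and MYLK among these genes, and CDH1, KRT19, COL1A1 and CD14 among the other lists, still passed, while the other called genes named from the lists, and MORC4, did not (limma adjusted p = 0.0507 to 0.137). Without WT replicate 1 the counts were 2 and 1, without WT replicate 2 they were 2 and 2, and the count that fell was 4 without KO replicate 1 and 5 without KO replicate 2.

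Of 6 tested genes for membrane proteins of the junction outside the claudins, 3 fell in KO and 0 rose. Over all genes tested 11.1% fell and 12.1% rose, and 6 genes are few for a statement about the class. LSR, the receptor that marks contacts of 3 cells, stood at 13.3 and 15.3 FPKM in WT and at 4.44 and 5.34 FPKM in KO (2.92-fold lower, log2 change -1.38, SE 0.15, limma adjusted p = 0.00549). LSR kept its call without any single library, at adjusted p = 0.0143 to 0.0274. CLMP, an adhesion molecule related to the coxsackievirus receptor, was 3.01-fold lower (adjusted p = 0.00951, and 0.0512 without WT replicate 1). JAM3, a relative of F11R, was 3.71-fold lower, from 1.22 and 1.22 FPKM to 0.388 and 0.269 FPKM (adjusted p = 0.0338), and lost its call when any single library was left out (adjusted p = 0.064 to 0.114), with a pseudocount of 0.1 (0.0518) or with quantile normalization (0.0532). JAM3 passed the limit for testing only through WT. MARVELD2, the tricellular relative of occludin, stood at 1.56 to 1.61 FPKM in WT and 1.43 to 1.74 FPKM in KO and is named after its values were seen.

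Of 11 tested scaffold genes 1 rose and 0 fell, a share of 9.09% against 23.3% of all genes tested. The groups did not overlap for 7 of the 11, near the 65.7% of all genes tested. The gene that rose was MAGI3, a PDZ scaffold, named after its values were seen. It stood at 1.41 and 1.35 FPKM in WT and 3.20 and 2.52 FPKM in KO (2.07-fold, limma adjusted p = 0.0326). It lost its call without WT replicate 1, WT replicate 2 or KO replicate 1 (adjusted p = 0.0987 to 0.149). TJP3, which encodes ZO-3, stood at 5.85 and 7.10 FPKM in WT and 5.23 and 6.05 FPKM in KO, and SYMPK, AMOTL2 and MPDZ did not pass either (adjusted p = 0.186 to 0.754).

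Among 14 tested polarity genes, 1 rose and 2 fell, a share of 21.4% that was near the 23.3% of all genes tested. LLGL2, a basolateral polarity protein of epithelia, stood at 3.98 and 4.48 FPKM in WT and at 11.7 and 13.99 FPKM in KO (3.04-fold, log2 change 1.40, SE 0.15, limma adjusted p = 0.00521). The genes PARD6A and PARD6B, which encode adaptors of the apical PAR complex, were 2.16-fold and 2.17-fold lower (adjusted p = 0.0251 and 0.0359). LLGL2 kept its call without any single library (adjusted p = 0.016 to 0.0311). PARD6A lost its call without any 1 of the 4 libraries, and PARD6B without WT replicate 1, WT replicate 2 or KO replicate 2 (adjusted p = 0.0564 to 0.161).

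Of 17 tested regulators, 2 rose and 2 fell, a share of 23.5% that was near the 23.3% of all genes tested. MYLK, the myosin light chain kinase known to open the paracellular path, stood at 2.33 and 2.88 FPKM in WT and at 7.93 and 8.01 FPKM in KO (3.06-fold, log2 change 1.32, SE 0.14, limma adjusted p = 0.00533, and 0.0174 to 0.0341 without any single library). RHOA, a GTPase of the actin belt, rose 1.66-fold (adjusted p = 0.0302). YBX3, the factor ZONAB that binds ZO-1, fell from 33.7 and 28.7 FPKM to 17.1 and 14.9 FPKM, 1.95-fold lower (adjusted p = 0.0145). ARHGEF2, a RHOA activator held at the junction by cingulin, was 1.74-fold lower (adjusted p = 0.0245). RHOA, YBX3 and ARHGEF2 lost their calls without either WT replicate, and RHOA and ARHGEF2 also without KO replicate 1 (adjusted p = 0.0552 to 0.198). RHOA also lost it with quantile normalization (adjusted p = 0.0704).

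**Figure D3:**
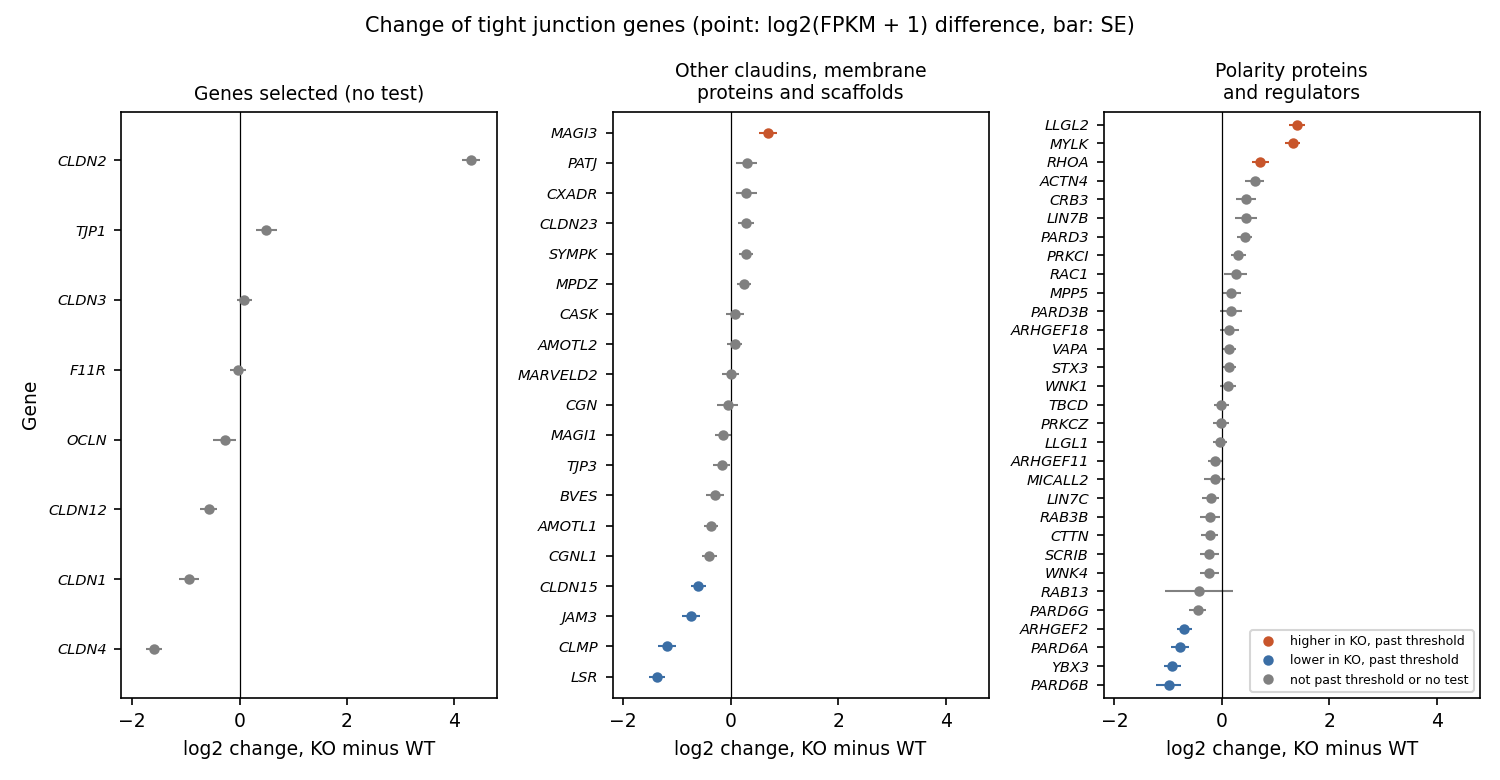
Difference KO minus WT on the log2(FPKM + 1) scale for each tested gene, with bars of 1 SE, in 3 panels (the selected genes, the other claudin, membrane and scaffold genes, and the polarity and regulator genes). Orange and blue mark genes past the threshold, and the selected genes are in grey since no test is shown for them. CLDN2 at 4.31 lies beyond every gene of the other panels, where values run from -1.38 for LSR to 1.40 for LLGL2.

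The adherens junction is the cadherin contact next to the tight junction. Of 13 listed genes 11 were tested, and 4 rose and 1 fell, with a median log2 change of 0.51. Over all genes tested 12.1% rose and 11.1% fell, and the median was 0.03. CDH1, the epithelial cadherin, stood at 6.79 and 8.55 FPKM in WT and at 39.9 and 36.9 FPKM in KO (5.01-fold, log2 change 2.19, SE 0.16, limma adjusted p = 0.00312, and 0.00569 to 0.0139 without any single library). VCL, which encodes the actin linker vinculin, rose 1.88-fold (adjusted p = 0.0144), CTNND1, p120-catenin, 1.57-fold (adjusted p = 0.0421) and CDH2, the neural cadherin, 1.60-fold (adjusted p = 0.0304, named after its values were seen). JUP, plakoglobin, fell from 120.2 and 129 FPKM to 78.5 and 71.4 FPKM, 1.66-fold lower (adjusted p = 0.0246). Without either WT replicate VCL, CTNND1, CDH2 and JUP lost their calls (adjusted p = 0.0616 to 0.228 over every library that ends a call), leaving 1 higher and 0 lower. CTNND1 also lost its call with quantile normalization or scaling by total reads (adjusted p = 0.0872 and 0.0532). The counts were 2 higher without KO replicate 1 and 0 lower without KO replicate 2.

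Of 22 transcription factors known to act on junction genes, 14 were tested, and 4 rose and 3 fell, where 12.1% of all genes tested rose and 11.1% fell. SNAI1, a repressor of claudin and cadherin genes in epithelia, stood at 0.682 and 0.905 FPKM in WT and at 3.05 and 2.86 FPKM in KO (3.72-fold, log2 change 1.14, SE 0.16, limma adjusted p = 0.00896, and 0.0263 to 0.0465 without any single library), and it passed the limit for testing only through KO. HNF4G and HNF4A, named after their values were seen, rose 2.83-fold and 1.58-fold (adjusted p = 0.0198 and 0.042). HNF4G passed the limit for testing only through KO, and HNF4A lost its call with quantile normalization or scaling by total reads (adjusted p = 0.0504 and 0.0544). CDX2, a factor known to act on CLDN2 and also named after its values were seen, had 28 and 15 reads in WT and 3 and 4 in KO and was not tested. VDR, the vitamin D receptor, which is known to act on CLDN2 in intestine, fell from 6.96 and 7.33 FPKM to 2.25 and 1.25 FPKM, 4.08-fold lower (adjusted p = 0.00772, and 0.0139 to 0.0286 without any single library). GRHL3, tested only through WT, was 4.72-fold lower (adjusted p = 0.0151), and TWIST2, named after its values were seen, 1.62-fold lower (adjusted p = 0.027). GRHL2, a known activator of CLDN4, had 0 reads in every library. HNF4A and HNF4G lost their calls without any 1 library, TWIST2 without WT replicate 1, WT replicate 2 or KO replicate 1, and GRHL3 without WT replicate 2 (adjusted p = 0.053 to 0.257). The counts that rose were 1, 2, 2 and 1 without WT replicate 1, WT replicate 2, KO replicate 1 and KO replicate 2, and the count that fell was 1 without WT replicate 2.

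**Figure D4:**
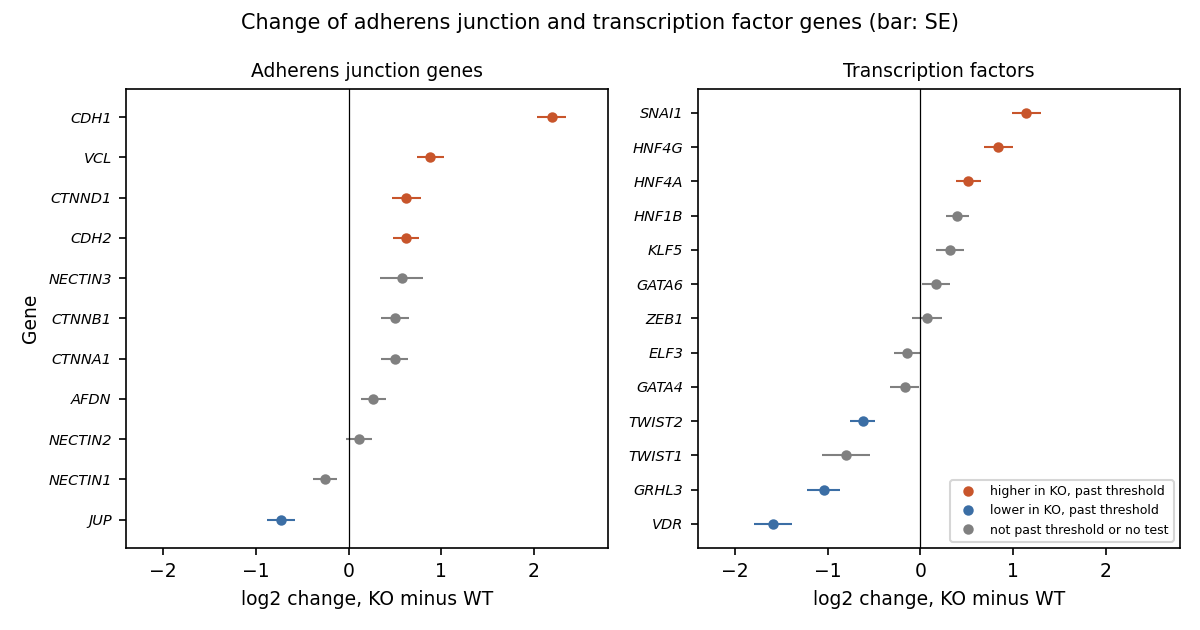
Difference KO minus WT on the log2(FPKM + 1) scale, with bars of 1 SE, for the 11 tested adherens junction genes and 13 of the 14 tested transcription factors. CDH1 at 2.19 is the highest value, and VDR at -1.59 the lowest; orange and blue mark genes past the threshold.

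Of 8 tested epithelial markers 4 rose and 1 fell in the same libraries, against 12.1% and 11.1% of all genes tested. KRT19 rose 2.93-fold (limma adjusted p = 0.00436), KRT8 2.14-fold (adjusted p = 0.0224), KRT18 2.13-fold (adjusted p = 0.0132, named after its values were seen) and CDH1 as above, whereas SPINT1, an inhibitor of epithelial surface proteases, was 9.78-fold lower (adjusted p = 0.00539) and passed the limit for testing only through WT. EPCAM, which binds CLDN7 in epithelia and is named after its values were seen, stood at 1.76 and 1.57 FPKM in WT and at 2.04 and 2.04 FPKM in KO (adjusted p = 0.391). The genes KRT8 and KRT18 overlap on opposite strands, so they may share reads. KRT8 lost its call without either WT replicate or KO replicate 2, and KRT18 without either WT replicate (adjusted p = 0.0594 to 0.141).

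The profiles most like that of CLDN2 were sought among 11503 tested protein-coding genes by the Euclidean distance between centred log2(FPKM + 1) values over the 4 libraries. The nearest was TM4SF4, a membrane protein of the tetraspanin-like family, at a distance of 0.43, with 1.56 and 2.68 FPKM in WT and 45.9 and 52.9 FPKM in KO. CD24, a surface glycoprotein, followed at 0.63, BAAT, a bile acid conjugating enzyme, at 0.82, and the mitotic genes DLGAP5 and KIF20A at 0.85 and 0.91. The nearest to CLDN4 were HHIPL2 at 0.06, PPL, the desmosomal linker periplakin, at 0.07, CHDH at 0.09, and SLC4A11 and ERICH5 at 0.11. PPL stood at 10.6 and 11.5 FPKM in WT and at 2.99 and 3.22 FPKM in KO. With 4 libraries in 2 groups these distances mostly reflect the size of the difference between the groups, and they are a description.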

How the data were processed

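The authors deposited FPKM values, 1 per gene and library. Per the labels' protocols paired-end reads were aligned with HISAT2 (2.0.5), and the submitters' processing notes name the builds hg38 and mm10. The counting tool, annotation and strand setting were not given in the sources used here. Identifiers, starts and ends of all 58735 genes equalled GENCODE release 29 on GRCh38. FPKM times gene length was a whole multiple of 1 step per library for 100% of values (tolerance 0.01), which gave reads per gene.

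Values were analysed as log2(FPKM + 1) with limma 3.58.1 in R 4.3.3 (intensity-dependent prior, prior df 3.54, residual df 2, no replicate block) over genes at 1 FPKM or more in at least 2 libraries, with Benjamini-Hochberg adjustment over all 14100. On this scale changes of low genes are understated; folds are ratios of mean FPKM. On simulated data the fit recovered large known changes but made more false calls than its threshold allows. Named were the 9 genes, CALU, up to 4 genes per list, taken by size of change among those that passed, or by abundance if fewer than 2 did, and the 5 profiles nearest to CLDN2 and to CLDN4. Further genes are marked as named after their values were seen, and markers at or near 0 were picked for that. The genes and lists were chosen with earlier results of these data known. Alternatives were 2 pseudocounts, 2 filters, 2 scalings, a replicate block, leaving out each library, and voom on the recovered reads, the last chosen after seeing the data. Promoter windows are from RefSeq (GRCh38.p14). Some genes of the lists that the counts include are not reported here.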

Additional observations from a re-analysis of the deposited data

How the results depend on the processing

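Results of 12 alternatives are given as counts higher and lower in KO. With no filter on low values 183 and 193 of all genes passed, 2 and 1 of the other tight junction genes, 1 and 0 of the adherens junction genes, 0 and 0 of the transcription factors, and 1 lower of the 9 selected genes, with more genes tested. With 1 FPKM required in all 4 libraries CLDN2 and CLDN4 were not tested, so 0 of the 9 were higher, and 2 transcription factors were higher. With voom on recovered reads, chosen after seeing the data, 2168 and 1957 genes passed. edgeR and DESeq2 were not run, since the deposited values are FPKM. The groups share replicate numbers, and the difference between replicates 1 and 2 correlated at 0.41 between WT and KO across genes, but the labels do not say that a number marks a shared culture or day. With a replicate block 2968 and 2577 of all genes passed, 2 of the 9 were higher, TJP1 being added, and 7 adherens junction genes were higher. Leaving out 1 library gave 505 to 1321 higher and 537 to 1260 lower over all genes. For the 9 genes it gave 1 to 1 higher and 1 to 2 lower, for the other tight junction genes 2 to 4 and 1 to 5, for the adherens junction genes 1 to 6 and 0 to 1, and for the transcription factors 1 to 2 and 1 to 4. Of the 9 genes, CLDN3 changed sign without WT replicate 1 (log2 change -0.01). F11R changed sign without WT replicate 1 or KO replicate 2 (0.01 and 0.09). Alternatives were computed for 40 other named genes and not for all of them, with MARVELD2 and EPCAM among those left out. Of these 40 only AMOTL2 changed sign. Its log2 change ran from -0.018 to 0.16 when 1 library was left out. The value was below 0 without WT replicate 1 or KO replicate 2, and AMOTL2 passed in none of these. CLDN2 ranged from 4.14 to 5.53 and CLDN4 from -2.34 to -1.51 in log2 change over 11 alternatives each. These ranges describe values on which the genes were chosen, and both genes entered the fit only through the group where they are high. CLDN1 did not pass with no filter or without either WT replicate. CLDN12 passed with the filter in all 4 libraries, quantile normalization, scaling by total reads, the replicate block and voom. The cause of these changes was not tested. CLDN7 is limited by depth, with 2 to 39 reads.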
